A study of Homo sapiens with 5 samples.

Results

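Among 13181 peaks of H3K4me3 on chromosomes 1 to 22 and X of MOLT-4 cells, 2065 were narrower than the lower quartile of all H3K4me3 peak widths and shared at least 1 bp with a peak of the transcription factor RUNX1. These narrow H3K4me3 peaks at RUNX1 sites were chosen by width and by contact with RUNX1, so neither property is a finding here. MOLT-4 is an established cell line of human T cell acute lymphoblastic leukaemia, and its cells, to which the labels give no drug or genetic change, were profiled by CUT&RUN. In that assay an antibody directs a micrococcal nuclease fusion to its target and the released fragments are sequenced. H3K4me3, RUNX1 and a target labelled SMA4 had 1 library each, and 2 IgG samples were not analysed here. The deposited lists give positions only, in hg19, so the depth behind a peak is unknown and no value has a replicate check. An hg19 genome and annotation were not used here, so peaks were not assigned to genes, no sequence was read and T cell marker genes were not checked.

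H3K4me3 is a trimethylated lysine of histone H3 that is placed mainly on nucleosomes beside active transcription start sites, where it can spread over several nucleosomes. Enhancers usually carry more of the monomethylated form and little of the trimethylated one. RUNX1 binds DNA through its runt domain with the partner CBFB, acts in blood cell development and T cell maturation, and occupies both promoters and distal elements. The distances measured here are to other H3K4me3 peaks. Promoters were not located, so they do not show which narrow peaks lie at one.

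The narrow peaks had a median width of 229 bp, with quartiles of 184 and 284 bp and a range from 179 to 354 bp. The smallest of these values is the minimum width in the whole H3K4me3 list, and 440 of the 2065 peaks (21.3%) were exactly that wide. The 1224 H3K4me3 peaks under the same width limit that did not touch RUNX1 were at the minimum in 542 cases (44.3%). Of those 1224 peaks, 546 lay within 1 kb of a RUNX1 peak without touching it. Just inside the width limit, 10 peaks of 354 bp had a median gap of 4.88 kb to the nearest H3K4me3 peak of 1000 bp or more. Just outside it, the 8 RUNX1-contacting peaks wider by 1 bp had a median gap of 67.9 kb. These groups are small and mark the limit, not a step in the data.

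A first comparison asked whether the narrow peaks flanked larger H3K4me3 peaks. Most did not. Within 5 kb of an H3K4me3 peak of 1000 bp or more, called a large peak below, lay 422 of the 2065 narrow peaks (20.4%, 95% Wilson interval 18.8 to 22.2%). Among all 6935 H3K4me3 peaks under 1000 bp, which include the narrow ones, the same share was 19.1%, an average over sets with higher and lower shares. At the other end, 990 narrow peaks (47.9%, 95% interval 45.8 to 50.1%) were more than 50 kb from any large peak, against 50.5% of all H3K4me3 peaks under 1000 bp. The median gap to a large peak was 44.6 kb.

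The distances covered a wide range. Up to 1 kb from a large peak lay 262 narrow peaks (12.7%). Between 1 and 5 kb there were 160, between 5 and 10 kb 125, and beyond 100 kb 659 (31.9%). Equally narrow H3K4me3 peaks without RUNX1 lay within 5 kb of a large peak more often, in 378 of 1224 cases (30.9%, 95% interval 28.4 to 33.5%), and 330 of them were within 1 kb. Mid-width H3K4me3 peaks with RUNX1, those above the width limit but under 1000 bp, did so in 428 of 3352 cases (12.8%, 95% interval 11.7 to 13.9%). The intervals cover counting error only, neighbouring peaks are not independent, and the differences between these sets were not tested.

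**Figure D1:**
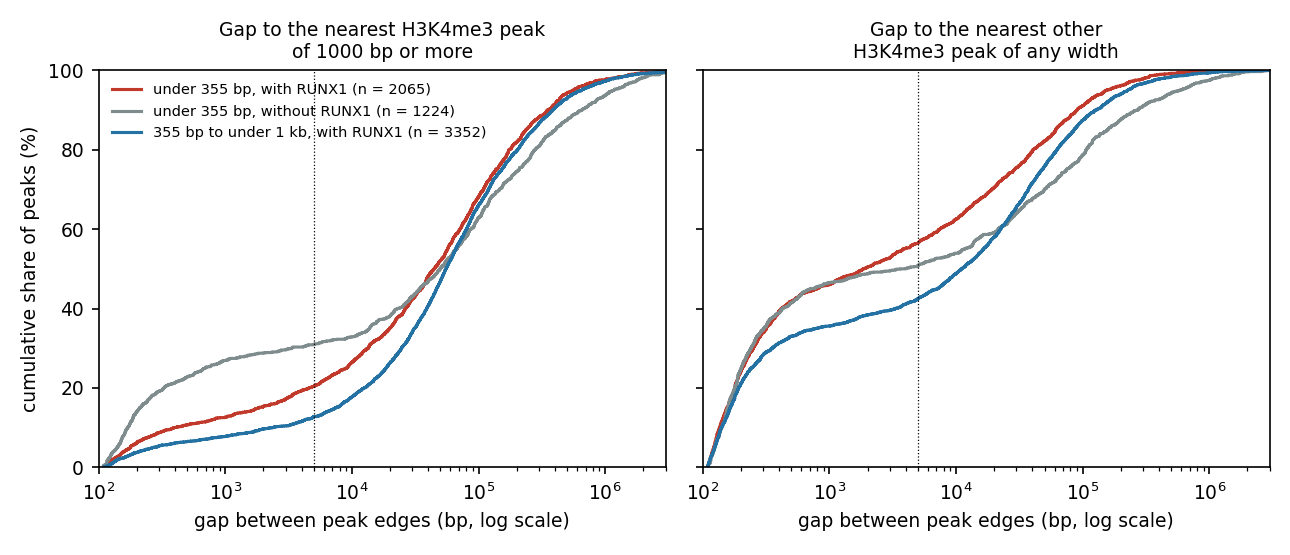
Cumulative share of H3K4me3 peaks (y axis, percent) by the gap in bp (log x axis) to the nearest large H3K4me3 peak (left) or to the nearest other H3K4me3 peak (right), with a dotted line at 5 kb. At 5 kb in the left panel the narrow peaks with RUNX1 (red) have reached 20.4%, those without RUNX1 (grey) 30.9% and mid-width peaks with RUNX1 (blue) 12.8%.

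Distance to a large peak did not by itself separate lone sites from companions of smaller peaks. Each narrow peak was therefore placed by the widest H3K4me3 neighbour within 5 kb. Beside the 422 with a large peak, 457 (22.1%) had a mid-width peak, 287 (13.9%) had only other narrow peaks, with or without RUNX1, and 899 (43.5%, 95% interval 41.4 to 45.7%) had no other H3K4me3 peak. Among all H3K4me3 peaks under 1000 bp, 50.7% had no other peak within 5 kb. Of the 990 narrow peaks over 50 kb from a large peak, 508 (51.3%) were alone in this sense, 289 (29.2%) lay beside a mid-width peak and 193 (19.5%) beside other narrow peaks. Lone narrow peaks that were also over 50 kb from a large peak thus made up 24.6% of the set. No other peak of the mark lay within 50 kb of 367 narrow peaks (17.8%), against 29.9% of equally narrow peaks without RUNX1, 24.1% of mid-width peaks with RUNX1 and 36.2% of large peaks with RUNX1.

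Many narrow peaks had a close companion, with or without RUNX1. The nearest other H3K4me3 peak was within 1 kb for 953 narrow peaks at RUNX1 (46.2%) and within 200 bp for 501 (24.3%). The shares were 46.6% and 24.9% for equally narrow peaks without RUNX1, and 35.6% and 21.2% for mid-width peaks with RUNX1. Gaps of at least 100 and under 200 bp were the most frequent class, with 498 peaks, followed by 203 under 300 bp and 112 under 400 bp in the next classes. The smallest gap between any neighbouring H3K4me3 peaks in the list was 109 bp, so the most frequent gaps are also the shortest that the list holds. Whether such neighbours are parts of 1 stretch of the mark separated by the peak caller was not tested. Joined with every H3K4me3 peak at gaps of up to 1 kb, narrow peaks beside a large peak belonged to stretches with a median span of 1881 bp, those beside a mid-width peak to stretches of 1158 bp, and those beside narrow peaks to stretches of 700 bp. In all, 638 of the 2065 narrow peaks (30.9%) lay in a stretch of 1000 bp or more.

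**Figure D2:**
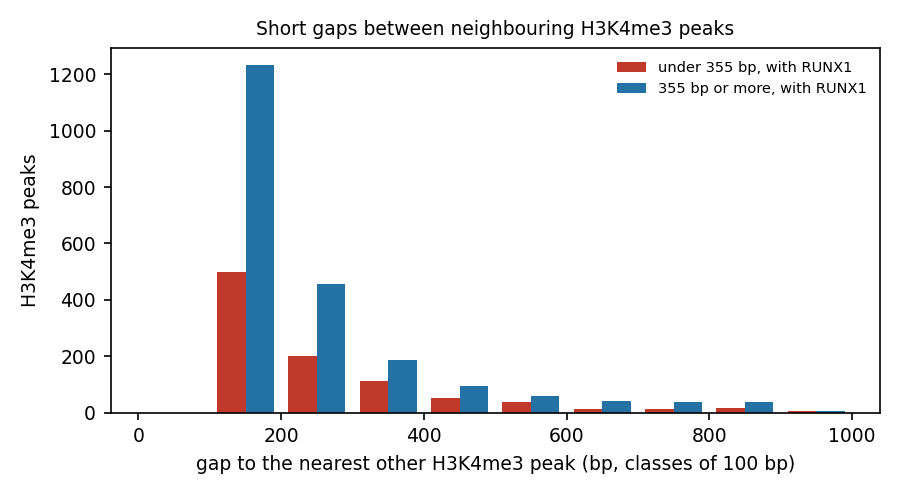
Number of H3K4me3 peaks (y axis) by gap to the nearest other H3K4me3 peak, in classes of 100 bp up to 1000 bp (x axis), for narrow peaks with RUNX1 (red) and wider peaks with RUNX1 (blue). Both sets are highest at 100 to 200 bp, with 498 and 1232 peaks, and neither has a gap under 100 bp.

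The RUNX1 peak over a lone H3K4me3 site was centred near it. Of the 899 narrow peaks without another peak within 5 kb, 462 (51.4%) contained the midpoint of their RUNX1 peak, and the median distance between the midpoints was 114.5 bp. Beside a large peak this distance was 260.25 bp, and 135 of 422 narrow peaks (32%) contained the RUNX1 midpoint. Beside a mid-width peak it was 279 bp, with 113 of 457 (24.7%). RUNX1 peaks over lone sites were also narrower, with a median of 840 bp against 1207 bp beside large peaks, which shortens the distances that are possible. As a share of the distance from the RUNX1 midpoint to its edge, the median was 29.0% for lone sites, 48.6% beside large peaks and 54.0% beside mid-width peaks. Lone narrow peaks lay wholly inside their RUNX1 peak in 750 cases (83.4%) and covered a median of 27.0% of it.

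Where a companion was near, RUNX1 was displaced toward it. For the 953 narrow peaks with another H3K4me3 peak within 1 kb, the RUNX1 midpoint lay on the companion's side of the narrow peak's midpoint in 684 cases (71.8%, 95% interval 68.8 to 74.5%) and on the other side in 267. The median displacement was 231 bp toward the companion. For wider H3K4me3 peaks with RUNX1 and a companion within 1 kb, the midpoint lay on the companion's side in 61.5% of cases, with a median displacement of 111 bp. A RUNX1 peak spanned the whole gap between both H3K4me3 peaks in 719 cases (75.4%), against 45.7% for the wider peaks (987 of 2161). Peak width bears on these differences, as RUNX1 peaks reach beyond a narrow H3K4me3 peak more readily. The differences were not tested. The RUNX1 midpoint fell inside the gap for 198 of the 953 (20.8%, 95% interval 18.3 to 23.5%), inside the narrow peak for 230 (24.1%) and inside the companion for 339 (35.6%). Among 2161 wider H3K4me3 peaks with RUNX1 and a companion within 1 kb, the midpoint fell in the gap in 10.3% of cases, inside the companion in 11.0% and inside the peak itself in 72.7%, as a wide peak leaves less room outside it. By the widest neighbour within 5 kb, the midpoint fell in the gap for 31.1% of cases with narrow companions only (75 of 241), 21.3% of those with a mid-width peak (86 of 403) and 12.0% of those with a large peak (37 of 309). In these cases the narrow peak and its companion lay on either side of the RUNX1 centre. Narrow peaks that were each other's nearest peak entered as separate cases with the same gap, and may share a RUNX1 peak. Such a gap was counted more than once, and the intervals do not allow for this. The class with narrow companions only is most open to it, and the wider peaks were counted in the same way.

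**Figure D3:**
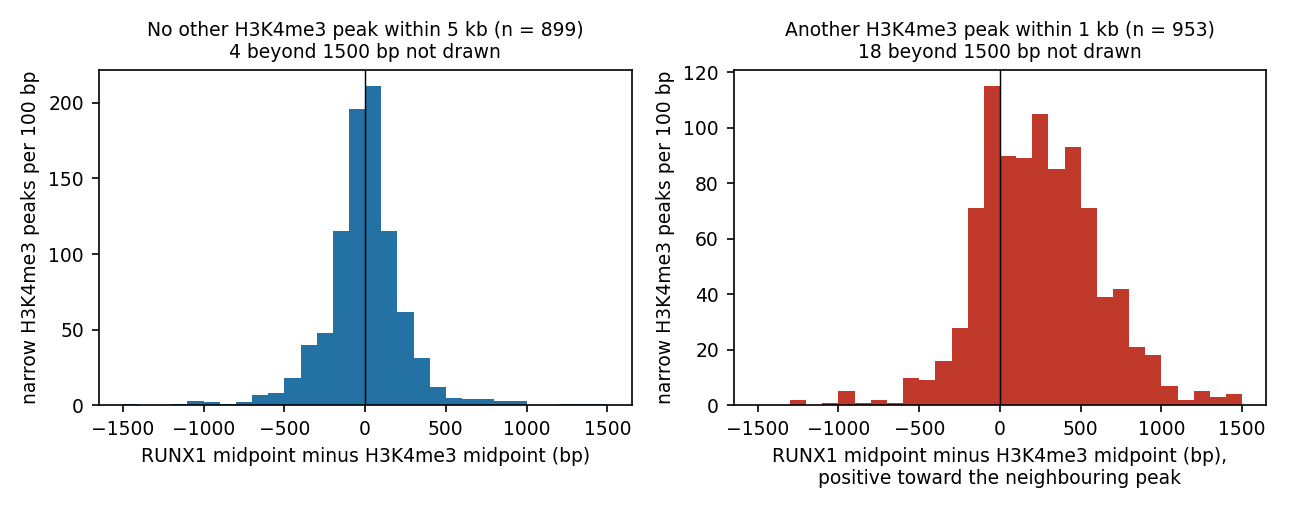
Number of narrow H3K4me3 peaks (y axis, per 100 bp) by position of the RUNX1 midpoint relative to the midpoint of the narrow peak (x axis, bp). For the 899 lone peaks (left) the sign follows genome orientation, so a centre near 0 does not measure how close RUNX1 lies. Regardless of side, their median distance is 114.5 bp. For the 953 peaks with a companion within 1 kb (right, companion on the positive side) the signed median is 231 bp. Narrow peaks that are each other's nearest peak are drawn separately.

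The narrow peaks rested on 1915 RUNX1 peaks. Of these, 1771 carried 1 narrow peak, 133 carried 2, 9 carried 3, 1 carried 4 and 1 carried 5, and 8 narrow peaks touched 2 RUNX1 peaks. For 1429 RUNX1 peaks the narrow peaks were the only H3K4me3 they met, whereas 486 also met a wider one. RUNX1 peaks with narrow peaks as their only H3K4me3 had a median width of 780 bp. That lay between the 527 bp of the 24890 RUNX1 peaks without H3K4me3 and the 1025 bp of the 9931 that met only wider H3K4me3 peaks. Wide RUNX1 peaks touch other peaks more readily, and contact was part of the choice, so this order is a description. The RUNX1 peak of 196 narrow peaks also reached a large H3K4me3 peak (9.49%, 95% interval 8.30 to 10.8%), against 6.57% of all RUNX1-contacting H3K4me3 peaks under 1000 bp. Thus 226 of the 422 narrow peaks beside a large peak sat under a separate RUNX1 peak.

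RUNX1 peaks separated by gaps of at most 12.5 kb were joined into 20665 clusters, of which 1730 held a narrow H3K4me3 peak. Clusters of 5 or more RUNX1 peaks held 540 of the 2065 narrow peaks (26.2%, 95% interval 24.3 to 28.1%), against 20.9% of all RUNX1 peaks. Another 907 (43.9%) were in clusters of 2 to 4 peaks and 618 (29.9%) at RUNX1 peaks that stood by themselves. Mid-width and large peaks with RUNX1 were in clusters of 5 or more in 15.6% and 11.0% of cases. Counted over RUNX1 peaks, the share was 25.7% of the 1915 touching a narrow peak (493). It was 15.4% of the 11846 touching any H3K4me3 peak and 23.5% of the 24890 touching none. RUNX1 peaks without H3K4me3 were thus in such clusters nearly as often as those at narrow peaks. Among narrow peaks, the share in clusters of 5 or more differed with the H3K4me3 surroundings. It was 37.0% (156 of 422) beside a large peak, 28.0% (128 of 457) beside a mid-width peak, 22.6% (65 of 287) beside narrow peaks and 21.2% (191 of 899) for lone narrow peaks, the last close to the 20.9% of all RUNX1 peaks. Beyond 50 kb from a large peak it was 16.5% (163 of 990), and for lone peaks at that distance 13.8% (70 of 508, 95% interval 11.1 to 17.0%). This order is partly built in. A RUNX1 peak at an H3K4me3 neighbour within 5 kb generally joins the cluster, and a lone peak has no such neighbour. How much of the order remains without this was not tested.

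The way clusters are joined also bears on whether a RUNX1 peak stands by itself. Nearly all large peaks carry RUNX1 (6199 with RUNX1 among 6246), and a site within the joining distance of one shares its cluster. None of the 125 narrow peaks at 5 to 10 kb from a large peak, and 3 of the 160 at 1 to 5 kb, had a RUNX1 peak that stood by itself. Up to 1 kb from a large peak, however, 47 of 262 (17.9%) did. By the joining rule, such a RUNX1 peak must itself reach the large peak, or the large peak carries no RUNX1. Of the 577 RUNX1 peaks standing alone with a narrow peak, 46 also touched a large peak. They are therefore not isolated RUNX1 sites beside a large peak with its own RUNX1. The share in clusters of 5 or more did not fall steadily with distance. It was 30.5% up to 1 kb, 47.5% at 1 to 5 kb, 54.4% at 5 to 10 kb, 34.7% at 10 to 25 kb, 23.8% at 25 to 50 kb, 19.9% at 50 to 100 kb and 14.7% beyond 100 kb. Counted per RUNX1 peak, narrow H3K4me3 peaks numbered 4.69 per 100 RUNX1 peaks for those standing alone, 5.71 in clusters of 2 to 4, 7.40 in clusters of 5 to 9 and 6.08 in clusters of 10 or more. Within clusters of 5 or more, 28.0% of narrow peaks lay on the first or last RUNX1 peak, as did 27.7% of the 7677 RUNX1 peaks there.

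**Figure D4:**
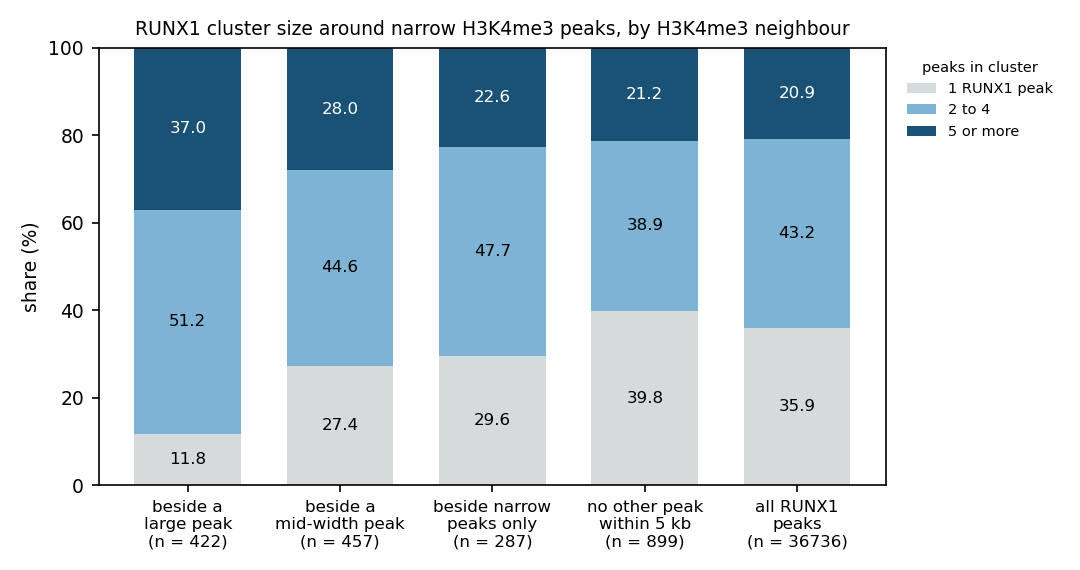
Share (y axis, percent) of narrow H3K4me3 peaks whose RUNX1 cluster holds 1, 2 to 4, or 5 or more RUNX1 peaks, for the 4 kinds of H3K4me3 surroundings and, in the right bar, for all RUNX1 peaks. The share in clusters of 5 or more goes from 37.0% beside a large peak to 21.2% for lone sites, next to 20.9% of all RUNX1 peaks. The order is partly built in, as RUNX1 peaks at a near H3K4me3 neighbour join the cluster.

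At the level of clusters, 372 of the 1064 clusters of 5 or more RUNX1 peaks (35.0%) held a narrow H3K4me3 peak, and 77 of the 150 clusters of 10 or more did (51.3%). Among the 13179 RUNX1 peaks standing alone, 577 did (4.38%). Larger clusters span more sequence and hold more RUNX1 peaks, with a median span of 23.8 kb for 5 or more. A large H3K4me3 peak was present in 216 of these 372 clusters (58.1%), and in 80 (21.5%) the narrow peaks were the only H3K4me3. With a narrow peak present, a large peak was found at 7.97% of RUNX1 peaks standing alone and in 36.5% of clusters of 2 to 4. The share was not counted for clusters without a narrow peak, so 58.1% cannot be read as a trait of clusters with one. Most clusters with narrow peaks held 1 (1471 clusters), while 209 held 2 and 50 held 3 or more.

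The 10 clusters with the most narrow peaks show both arrangements. They held 46 narrow peaks. Choice by number of narrow peaks, with ties broken by number of RUNX1 peaks, favours larger clusters. In 9 of the 10 there were 5 or more RUNX1 peaks, against 372 of all 1730 clusters with a narrow peak. A large H3K4me3 peak lay in 8 of these 10 clusters. The first lay on chromosome 1 from 198976446 to 199026837, with 17 RUNX1 peaks, 6 SMA4 peaks and 6 narrow H3K4me3 peaks. Of these, 3 followed a large peak of 2988 bp at gaps of 0.137, 0.999 and 1.99 kb. The other 3 lay 10.2 to 12.7 kb from it under a RUNX1 peak of 4815 bp. The second cluster, on chromosome 9 from 132585398 to 132658118, held 16 RUNX1 peaks. All 5 of its narrow peaks lay under 1 RUNX1 peak of 11712 bp, 49.1 to 57.8 kb from the nearest large peak. The third, on chromosome 1 from 32388016 to 32430152, had 16 RUNX1 peaks and narrow H3K4me3 peaks on both sides of a large peak of 2831 bp, at gaps from 1.12 to 19.2 kb.

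Other clusters differed in their large peaks. On chromosome 13 from 30945469 to 30997396, 11 RUNX1 peaks carried 5 narrow peaks of 179 to 290 bp and no other H3K4me3. The smallest gap to a large peak was 40.7 kb, and 3 of the 5 were alone. On chromosome X from 39942117 to 39969329, 9 RUNX1 peaks carried 4 narrow peaks, and the widest H3K4me3 peak there was 419 bp. On chromosome 16 from 67554963 to 67597954, 14 RUNX1 peaks carried 4 narrow peaks without another H3K4me3 peak within 5 kb, although a large peak of 3146 bp lay in the same cluster. Their gaps to the nearest large peak went from 5.23 kb, just past that limit, to 39.1 kb. The longest of these gaps was to another large peak, outside the cluster. In contrast, all 4 narrow peaks of a cluster on chromosome 2 from 47142131 to 47173242 lay within 5 kb of a large peak. That large peak, of 1941 bp from 47168003 to 47169943, and another of 1621 bp on chromosome 2 from 98329811 to 98331431 had 4 narrow peaks each within 5 kb, the most of any. In all, 395 of 6246 large peaks (6.32%) had a narrow peak at RUNX1 within 5 kb, in 354 cases just 1. Their median width was 1621 bp, against 1556 bp for the other large peaks.

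**Figure D5:**
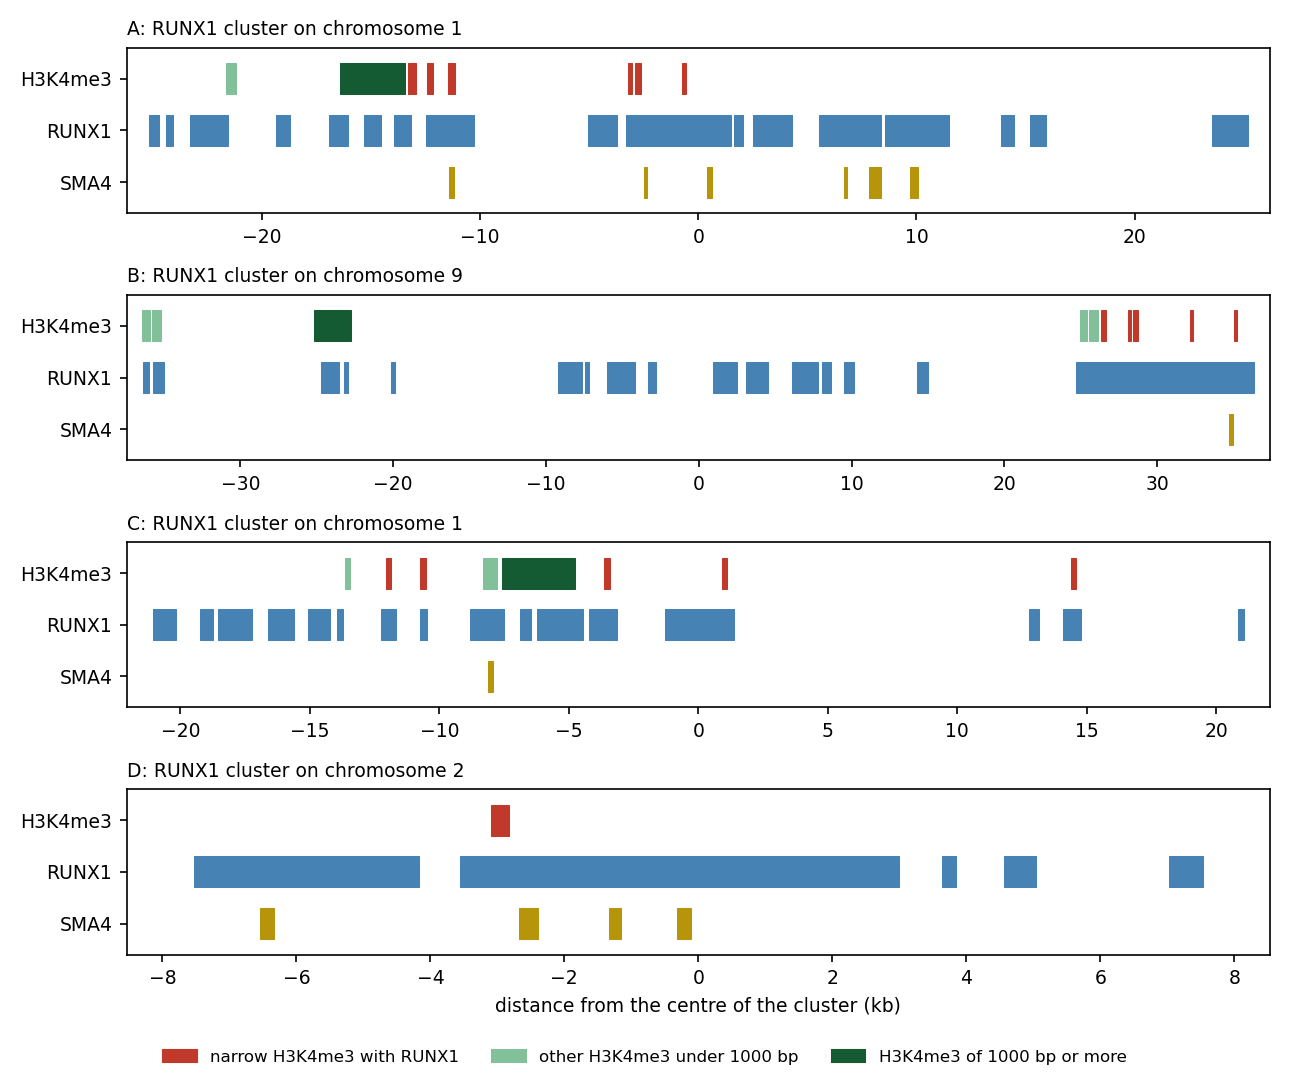
Peaks of H3K4me3, RUNX1 and SMA4 (rows, boxes to scale) against distance from the cluster centre (x axis, kb) in the 3 RUNX1 clusters with the most narrow H3K4me3 peaks (A to C) and around the lone narrow peak over 50 kb from a large peak with the widest RUNX1 peak (D). Ties among clusters were ordered by number of RUNX1 peaks. Narrow peaks (red) trail a large peak (dark green) in A and lie on both sides of one in C, while in B all 5 lie under a RUNX1 peak of 11712 bp and in D 1 lies under a RUNX1 peak of 6562 bp.

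Far from large peaks, some narrow H3K4me3 peaks lay under very wide RUNX1 peaks. The 10 with the widest RUNX1 peaks, among the 990 over 50 kb from a large peak, rested on 7 RUNX1 peaks, of which 5 overlapped SMA4. Only 1 of the 10 narrow peaks itself did. These RUNX1 peaks were chosen for width, and a wider peak offers more bases to overlap. Of all RUNX1 peaks, with a median width of 645 bp, 2.56% overlapped SMA4. The share was not counted for RUNX1 peaks of similar width to these. A link between SMA4 and these narrow peaks was not tested. The first 4 of the 10 narrow peaks belonged to the RUNX1 peak of 11712 bp on chromosome 9. The next, on chromosome 2 from 182168860 to 182169134 (275 bp), lay near the start of a RUNX1 peak of 6562 bp. The nearest H3K4me3 peak of any width was 89.1 kb away, and the cluster held 5 RUNX1 and 4 SMA4 peaks. On chromosome 6 from 14449673 to 14449964 (292 bp) a narrow peak lay under a RUNX1 peak of 6326 bp, with the nearest H3K4me3 peak 332 kb and the nearest large peak 635 kb away. On chromosome 8 from 66863698 to 66863946 (249 bp) a narrow peak under a RUNX1 peak of 4810 bp also overlapped SMA4, and the nearest H3K4me3 peak was 108 kb away. Of the 10, 3 were alone, 4 had a mid-width companion within 5 kb and 3 had only narrow companions.

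SMA4 was rare at the narrow peaks. It overlapped 32 of 2065 (1.55%, 95% interval 1.10 to 2.18%), against 2.39% of all H3K4me3 peaks. The share was 0.327% (4 of 1224, 95% interval 0.127 to 0.837%) at equally narrow H3K4me3 peaks without RUNX1, 2.27% at mid-width peaks with RUNX1 and 3.21% at large peaks with RUNX1. A shorter peak offers fewer bases to overlap, and the SMA4 peaks were called in a different batch folder with a different pipeline. Among the surroundings, SMA4 was found at 20 of 899 lone narrow peaks (2.22%, 95% interval 1.44 to 3.41%), at 7 of 422 beside large peaks (1.66%), at 3 of 457 beside mid-width peaks (0.656%) and at 2 of 287 beside narrow peaks (0.697%). The intervals of these 4 shares overlap. Counted over the whole RUNX1 peak, 69 of the 1915 RUNX1 peaks with a narrow H3K4me3 peak overlapped SMA4 (3.60%, 95% interval 2.86 to 4.54%), against 2.56% of all RUNX1 peaks. Among the 9931 RUNX1 peaks that met only wider H3K4me3 peaks it was 2.70% (95% interval 2.40 to 3.04%). The median widths of these 3 sets were 928, 645 and 1025 bp. Wider RUNX1 peaks offer more bases to overlap, and the differences were not tested.

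The 32 narrow peaks with SMA4 shared 4 to 327 bp with it, with a median of 175.5 bp. The greatest shared length was at a narrow peak on chromosome 4 from 145580230 to 145580556, all 327 bp of which lay inside an SMA4 peak of 989 bp, 126 bp from a large H3K4me3 peak. The second, on chromosome 13 from 41579084 to 41579415, was alone, 12.1 kb from the nearest H3K4me3 peak, under a RUNX1 peak of 3264 bp. A lone peak on chromosome 4 from 25915749 to 25916024 shared 254 bp with SMA4 and was 405 kb from other H3K4me3. On chromosome 22 from 29197940 to 29198291, a narrow peak 523 bp from a large peak shared 232 bp. Of the 32, 17 were over 50 kb from a large peak, as were 47.9% of all 2065 narrow peaks. In clusters of 5 or more RUNX1 peaks lay 11 of the 32, against 26.2% of all narrow peaks. With so few peaks, these counts are not read as traits of narrow peaks with SMA4.

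Narrow peaks at RUNX1 were found on all 23 chromosomes examined. Chromosome 1 had the most, with 226, and chromosome 21 the fewest, with 21. As a share of the H3K4me3 peaks of a chromosome they went from 12.4% on chromosome 19 to 20.5% on chromosome 22. Relative to RUNX1 peaks the order differed, with 3.71 narrow peaks per 100 RUNX1 peaks on chromosome 21, 7.57 on chromosome 19 and 7.61 on chromosome 22.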

How the data were processed

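CUT&RUN libraries for H3K4me3, RUNX1 and SMA4 from MOLT-4 cells were compared through their deposited peak lists, which give chromosome, start, end and a running name. Per the file headers, H3K4me3 and RUNX1 peaks came from MACS2 in a folder named batch2, and SMA4 peaks from cutruntools at a q threshold of 0.01 in a folder named batch3. Tools listed by the submitters' processing notes are MACS2 and SEACR, with hg19 as the build. The aligner, the threshold of the first 2 lists and the read depth were not given in the sources used here. Deposited lists hold 13199, 36777 and 1479 peaks, of which 13181, 36736 and 1475 on chromosomes 1 to 22 and X were used. Positions are printed 1-based.

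Narrow peaks were under 355 bp, mid-width peaks from there to under 1000 bp. Overlap meant at least 1 shared bp, and gaps were measured between peak edges. A narrow peak on several RUNX1 peaks was assigned to the one sharing the most bases. Shares carry 95% Wilson intervals. No test was made, since each antibody has 1 library. Python 3.11.15, pandas 2.3.3 and scipy 1.17.1 were used, and the interval code was tested on simulated peaks. Named regions were the 10 clusters with the most narrow peaks, the 10 narrow peaks over 50 kb from a large peak with the widest RUNX1 peaks, up to 10 sharing the most bases with SMA4, the 5 large peaks with the most narrow peaks within 5 kb, and peaks at the width limit. Clusters tied in narrow peaks were ordered by number of RUNX1 peaks, then by bases under RUNX1. The set of narrow peaks, the distance limits and the cluster rule were chosen with earlier results of these data known. The alternatives tried were other overlap, width, distance and joining limits. The planned descriptions of motifs, base composition, genes and lineage markers were not made, as they need an hg19 genome or annotation.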

Additional observations from a re-analysis of the deposited data

How the results depend on the processing

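Of 49 alternative values, 31 stayed inside the 95% interval of the reported share and 18 did not. An overlap of 50% of the shorter peak, removal of peaks at the minimum width and a width limit of 250 bp moved none of the shares. The share within 5 kb of a large peak was 18.3% with H3K4me3 peaks within 200 bp merged, 27.6% and 12.5% with large peaks of at least 750 and 1500 bp, and 15.4% and 26.5% with limits of 2 and 10 kb. The share over 50 kb away was 40.5% and 64.8% with those large peaks and 61.4% with a limit of 25 kb. The share whose RUNX1 peak reached a large peak was 6.07% after merging, and 13.9% and 4.60% with large peaks of 750 and 1500 bp. The share in clusters of 5 or more was 24.1% with a width limit of 500 bp, and 10.8% and 43.9% with RUNX1 joined at 5 and 25 kb, where all RUNX1 peaks gave 8.93% and 37.4%. SMA4 within 1 kb was found at 3.78%. The share without another H3K4me3 peak within 5 kb was 57.5% after merging, 53.8% with a limit of 1 kb and 34.8% with 12.5 kb. After merging, 1564 peaks met the rule, and the 899 lone peaks were the same in number. These limits define the classes, so the shares move with them by construction. Alternatives for lone peaks and for RUNX1 midpoints in gaps were chosen after seeing the data. No paired analysis was possible because each antibody has 1 library. Depth is unknown, so a missing neighbour may be a peak too weak to be called.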
